A study of Sus scrofa with 54 samples.

Results

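The ileum of piglets reared in isolators under daily antibiotics (IR) was compared between day 56 and day 28 of age, that is, 4 weeks after milk replacer gave way to solid feed and at the end of the milk period. The labels put 12 of the 54 arrays of the series in this comparison, 6 at day 56 and 6 at day 28, and each array carried RNA from the ileum of a different piglet. IR piglets were Large White × Landrace animals born to indoor sows, moved to individual isolator units at about one day of age, given milk replacer until day 28 and creep feed from day 29, and dosed with an antibiotic cocktail every day at both ages. The sow-reared groups used for comparison, indoor (IN) and outdoor (OUT), had 12 arrays each at the same days, stayed with the sow until weaning at day 28 and also had creep feed from day 29, and their labels name no antibiotics. By the study's methods IR and IN piglets came from the same indoor sows, and all sows were inseminated by the same boar. Age, the change of feed, the length of antibiotic treatment and any processing of the tissue by sampling day changed together and cannot be told apart. RNA was hybridised to the GeneChip Porcine Genome array, and values are log2 signals, so a difference of 1 is 2-fold.

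The ileum is the last part of the small intestine, where enterocytes recover bile acids and take up the sugars, peptides and vitamins left by the jejunum. Milk delivers fat and lactose, a sugar made of glucose and galactose, whereas solid feed delivers starch, plant protein and many plant compounds. Around weaning the pig gut is known to replace the enterocytes of the suckling period with cells of adult type, while the immune tissue of the mucosa continues to fill with lymphocytes.

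Enterocyte markers were bright in these libraries, with 0 of 9 measured markers dim (a mean log2 value under 4), against 10 of 10 hepatocyte markers and 4 of 4 pancreatic acinar markers dim. Smooth muscle markers were also bright, with a list mean of 10.24 to 11.58 at day 56 and of 10.31 to 10.89 at day 28, so the RNA came from gut wall as well as epithelium. The mean of the enterocyte list was 12.33 to 12.93 at day 56, against 11.51 to 12.31 at day 28, and this difference was carried by FABP6 (change 4.67) and SLC15A1 (change 1.90), which are described below. The other 7 markers had changes between −0.83 (APOA4) and 0.37 (ANPEP), and the median over the 9 was 0.20. Arrays correlated between 0.969 and 0.994 within a day and between 0.956 and 0.987 across the days. The signal of the 3′ probeset of GAPDH exceeded that of its 5′ probeset by 2.24 to 2.54 at day 56, against 1.79 to 2.04 at day 28. The same gap was seen in IN (2.23 to 2.64 at day 56, against 1.58 to 2.01 at day 28) and in OUT (2.29 to 2.54, against 1.72 to 2.03). A further GAPDH pair, both actin pairs and the EF1A pair overlapped between the days in IR. In OUT an actin pair did not overlap (−0.13 to 0.33 at day 56, against −0.63 to −0.16 at day 28). The median log2 value of each IR array was 4.06 to 4.12 at day 56, against 3.99 to 4.09 at day 28 (exact permutation p = 0.0087). The part of these differences in the results below was not tested. In RNA from whole tissue, fewer cells of a type and less RNA per cell cannot be told apart.

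A probeset was called when limma gave an adjusted p under 0.05 over the 24057 probesets tested. Of these, 2085 (8.67%) were called in IR, 969 higher (4.03%) and 1116 lower (4.64%) at day 56. The study's own criterion, an unadjusted p under 0.01 with at least a 2-fold change, was met by 718 probesets (2.98%), 349 higher and 369 lower. With each array centred on its median the split of calls was 774 higher and 1502 lower. Leaving out any 1 array gave between 1449 and 2511 calls. Of the rises, 285 called probesets carried 1 gene symbol and 678 carried none. Of the falls, 732 carried 1 symbol and 376 none. Every gene of a list below carries 1 symbol, as do 10099 of the probesets tested. The shares over all probesets are therefore not the shares over such genes. The ranges of the 2 days did not overlap for 1234 probesets (5.13%). A change below 0 was found for 12383 of the 24057 probesets. With only probesets of a log2 value of 4 in at least 6 arrays kept, the median change was −0.06. The 12 largest rises among called genes ran between 2.81 (FAXDC2) and 5.21 (DPEP1), and the 12 largest falls between −2.31 (AMCF-II) and −7.03 (RACK1).

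**Figure D1:**
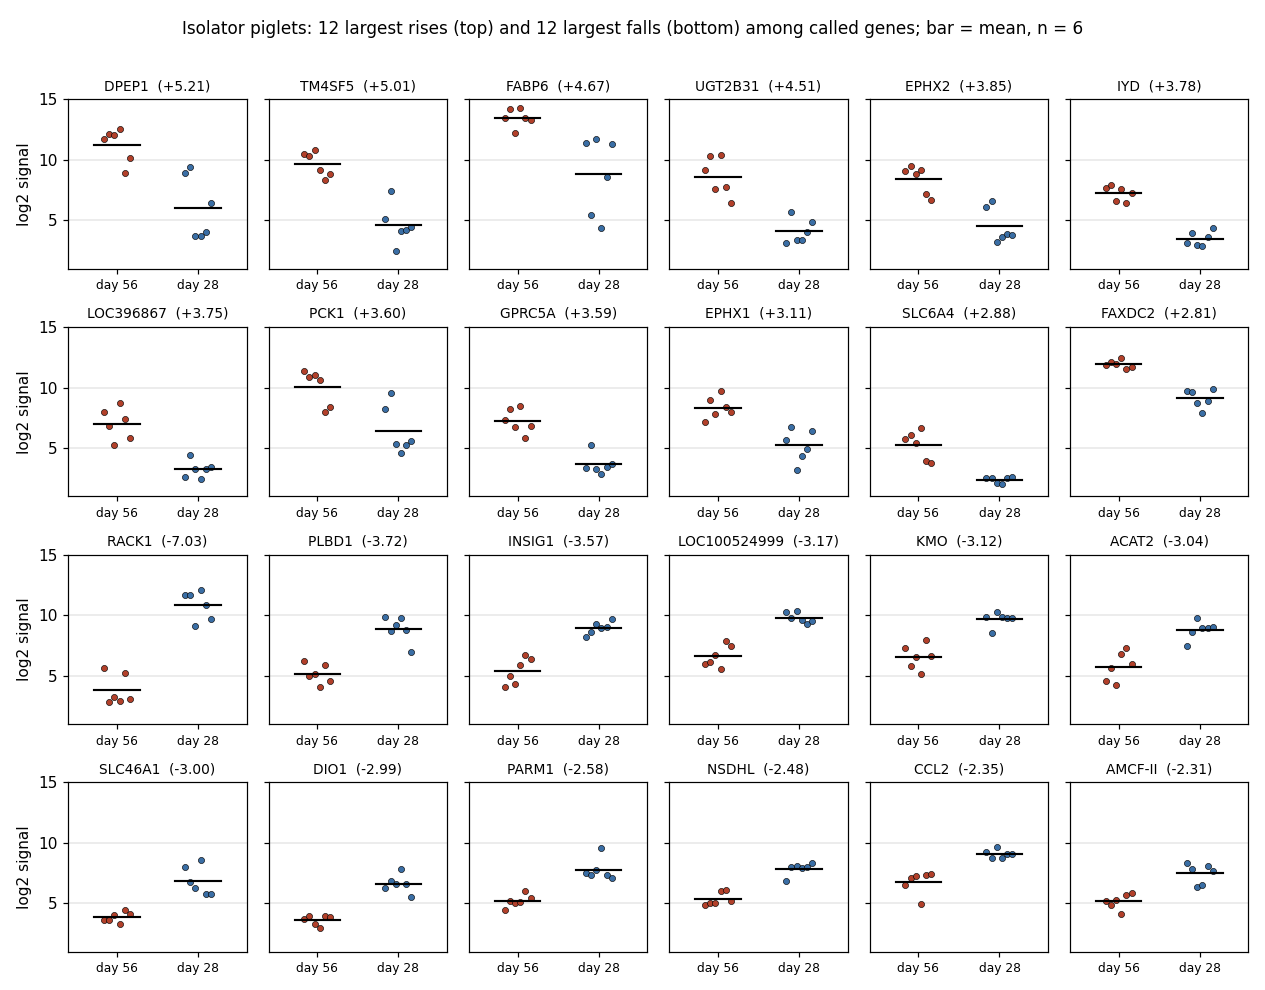
Log2 signal of each isolator piglet at day 56 (left, red) and day 28 (right, blue) for the 12 called genes with the largest rise and the 12 with the largest fall, with the mean as a bar (n = 6) and the log2 change in brackets. The ranges of the 2 days overlap only for DPEP1 and PCK1.

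The bile acid binding protein of the ileum and a pair of membrane proteins had the largest rises. FABP6, which carries bile acids through the ileal enterocyte, lay between 12.19 and 14.27 at day 56 (median 13.43), against 4.36 to 11.76 at day 28 (median 9.95). All 6 day 56 piglets were above all 6 day 28 piglets, and the day 28 piglets were spread over a wide range (change 4.67, SE 1.21, adjusted p = 0.032 by limma; exact permutation p = 0.00216, the smallest that 6 against 6 allows). The mean was 3.55 at day 5, so the level climbed over the 3 ages. Its call was lost when day 56 replicate 1, 3, 6 or the unnumbered array or day 28 replicate 5 was left out, with a highest adjusted p of 0.0659 (change 4.52) without day 56 replicate 1. DPEP1, a membrane dipeptidase, spanned 8.90 to 12.53 at day 56 (median 11.87), against 3.72 to 9.38 at day 28 (median 5.23), a change of 5.21 (SE 1.08, adjusted p = 0.011). Its ranges overlapped. TM4SF5, a membrane protein of the tetraspan superfamily, had 8.30 to 10.83 at day 56 (median 9.75), against 2.49 to 7.43 at day 28 (median 4.34), a change of 5.01 (SE 0.70, adjusted p = 0.0015).

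Several transporters for sugars, peptides and amino acids were higher at day 56. Of 16 measured nutrient transporter genes 5 rose, 1 fell and 10 did not pass, with a median change of 0.63, against −0.01 over all probesets. Among the 10099 probesets with 1 symbol 285 rose and 732 fell. SLC2A5, the fructose carrier GLUT5, stood at 9.55 to 10.28 at day 56 (median 9.87), against 6.02 to 7.94 at day 28 (median 7.26), with no overlap (change 2.75, SE 0.29, adjusted p = 0.00033). The sodium-glucose cotransporter SLC5A1 rose by 1.11 (SE 0.18, adjusted p = 0.0034), reaching 12.77 to 13.41 at day 56, against 11.46 to 12.49 at day 28. SLC15A1, the intestinal carrier of di- and tripeptides, was 10.995 to 12.52 at day 56 (median 11.69), against 8.50 to 10.31 at day 28 (median 10.04), a change of 1.90 (SE 0.35, adjusted p = 0.0067). The glutamate carrier SLC1A1 rose by 1.24 (adjusted p = 0.0455), and the amino acid carrier SLC6A14 by 0.38 (adjusted p = 0.023) at a dim probeset, with a median of 2.17 at day 56 and 1.80 at day 28. The brush border peptidases ANPEP (change 0.37, SE 0.09, adjusted p = 0.020) and DPP4 (change 0.60, SE 0.16, adjusted p = 0.034) were the 2 of 10 digestive enzymes that rose, and none fell. The call of DPP4 was lost in 9 of the 12 fits without 1 array. In a fit of all 9 groups of the series, which share 1 estimate of the spread, the calls of SLC5A1, SLC15A1, ANPEP and DPP4 were lost (adjusted p = 0.134, 0.0501, 0.824 and 0.285).

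The folate carrier SLC46A1 and the iron carrier SLC11A2 fell. SLC46A1, the proton-coupled folate transporter, ran from 3.33 to 4.49 at day 56 (median 3.84), against 5.75 to 8.60 at day 28 (median 6.55), a change of −3.001 (SE 0.46, adjusted p = 0.0026). At day 5 its mean was 10.05, so the level declined across all 3 ages. SLC11A2, the iron carrier DMT1, had little spread within a day, with 4.86 to 5.48 at day 56 (median 5.26), against 6.90 to 7.51 at day 28 (median 7.11), a change of −1.95 (SE 0.14, adjusted p = 7.1e-05). ACO1, the cytosolic aconitase that also serves as an iron sensor, fell by 0.42 (SE 0.08, adjusted p = 0.010). Of the 10 measured iron genes 8 did not pass, and 5 had a change above 0 and 5 below 0. Among the 10099 probesets with 1 symbol 732 fell. The zinc importers went opposite ways. SLC39A4, the main zinc importer of the enterocyte, was 7.85 to 9.47 at day 56 (median 8.83), against 5.92 to 7.34 at day 28 (median 6.77), a change of 2.09 (SE 0.30, adjusted p = 0.0019), whereas SLC39A14 changed by −1.08 (SE 0.19, adjusted p = 0.0056, and 0.093 in the fit of 9 groups).

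Several genes for the use of galactose were lower at day 56. This group of genes was chosen after its values were seen, and 3 of its 6 measured genes fell and none rose. Among the 10099 probesets with 1 symbol 732 fell and 285 rose. GALK1, the kinase that commits galactose to metabolism, had 4.73 to 6.53 at day 56 (median 6.05), against 6.92 to 8.67 at day 28 (median 7.96), a change of −2.05 (SE 0.35, adjusted p = 0.0043). GALT, the uridylyltransferase of the next step, was 5.80 to 7.01 at day 56 (median 6.55), against 7.45 to 8.95 at day 28 (median 8.34), a change of −1.74 (SE 0.30, adjusted p = 0.0045), and both of its other probesets fell too, by 1.93 and 1.27. GALK2 changed by −0.45 (SE 0.11, adjusted p = 0.031). PCK1, which opens the path from amino acids to glucose, went the other way, with 7.94 to 11.38 at day 56 (median 10.74), against 4.56 to 9.57 at day 28 (median 5.48). The ranges overlapped, and the change (3.60, SE 0.90, adjusted p = 0.029) lost its call in 8 of the 12 fits that left out 1 array, with a highest adjusted p of 0.0624.

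Enzymes of cholesterol synthesis were lower at day 56. All 13 measured genes had a change below 0, 7 passed the test, and none rose, with a median change of −1.21. Over all 24057 probesets 12383 had a change below 0, and of the 10099 with 1 symbol 732 fell. The list mean per piglet was 7.55 to 8.63 at day 56 (median 8.09), against 8.43 to 9.70 at day 28 (median 9.54). NSDHL, which removes a methyl group from the sterol ring, stood at 4.83 to 6.14 at day 56 (median 5.14), against 6.81 to 8.35 at day 28 (median 8.00), with no overlap (change −2.48, SE 0.29, adjusted p = 0.0005). FDPS, which makes farnesyl diphosphate, was 8.84 to 10.35 at day 56 (median 9.64), against 10.47 to 11.43 at day 28 (median 11.23), a change of −1.59 (SE 0.27, adjusted p = 0.0040). SQLE, squalene epoxidase and a rate-limiting enzyme of the pathway, changed by −2.02 (SE 0.49, adjusted p = 0.024), its ranges overlapped, and its call was lost in 7 of the 12 fits without 1 array (highest adjusted p 0.0529) and in the fit of 9 groups (adjusted p = 0.221). MSMO1, HSD17B7 and SC5D, which act on later sterols, changed by −1.65, −1.21 and −1.24.

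INSIG1, the endoplasmic reticulum protein that holds back sterol synthesis and is itself induced when sterols run low, is measured by a pair of probesets, and both fell. The brighter one was 10.01 to 11.32 at day 56 (median 10.73), against 11.51 to 12.70 at day 28 (median 12.27), a change of −1.52 (SE 0.24, adjusted p = 0.0028). The other was 4.06 to 6.74 at day 56 (mean 5.39), against 8.21 to 9.67 at day 28 (mean 8.96), a change of −3.57 (SE 0.45, adjusted p = 0.00088). ACAT2, the thiolase that starts the pathway, fell by 3.04 at one probeset (SE 0.51, adjusted p = 0.0043) and had a change of −1.15 at its brighter one, which did not pass (adjusted p = 0.082). FASN, fatty acid synthase, was 5.54 to 7.12 at day 56 (median 5.67), against 7.39 to 9.04 at day 28 (median 7.98), a change of −2.19 (SE 0.34, adjusted p = 0.0024). Of the 11 measured genes of fatty acid synthesis it was the only one that fell. DGAT2, which makes triglycerides, was the only one that rose (change 1.95, SE 0.50, adjusted p = 0.032). The call of DGAT2 was lost in 7 of the 12 fits without 1 array and in the fit of 9 groups (adjusted p = 0.129). The median change of the list was −0.17, and among the 10099 probesets with 1 symbol 732 fell and 285 rose.

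**Figure D2:**
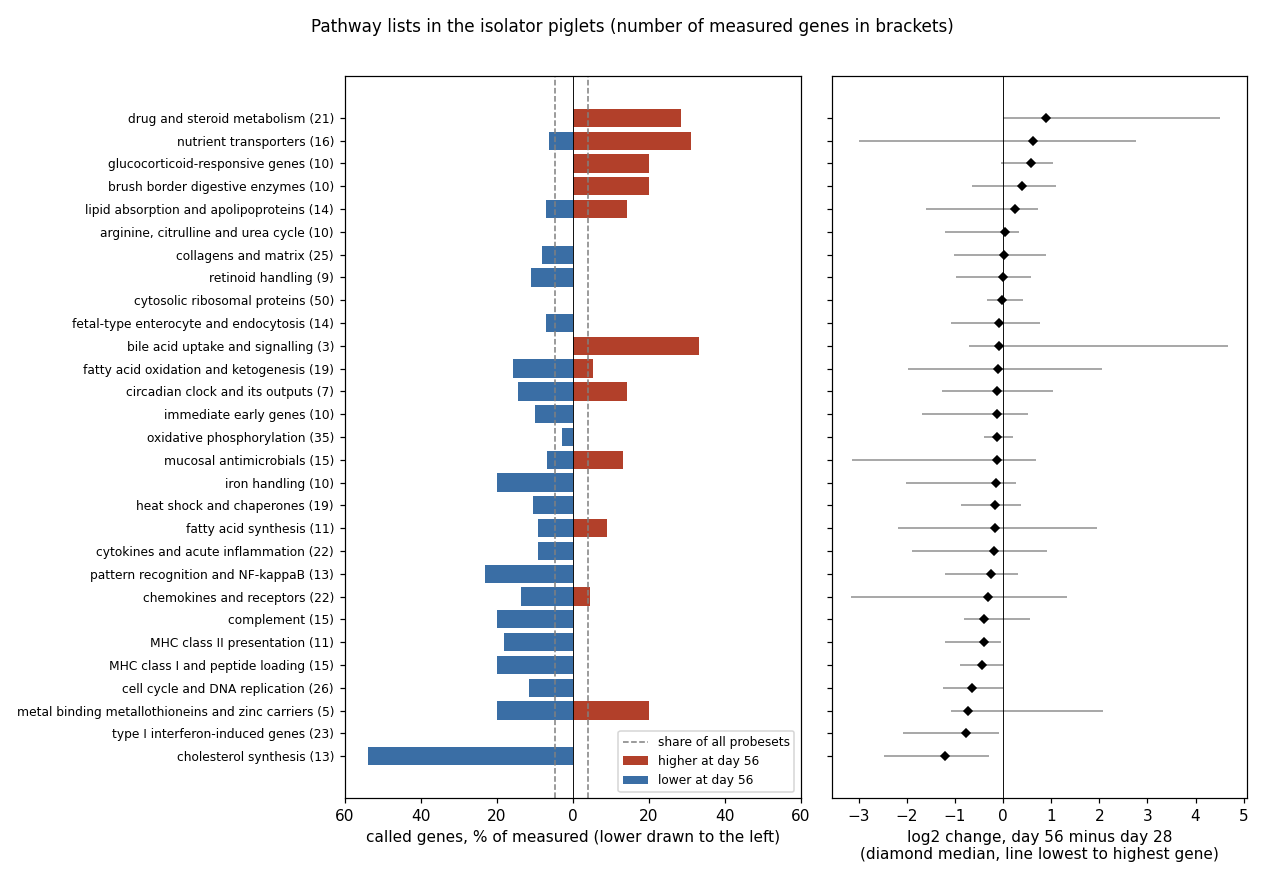
Pathway lists in isolator piglets, with the number of measured genes in brackets. Left, the share of genes called higher (red, right) or lower (blue, left) at day 56, with the shares of all probesets (4.03% and 4.64%) as dashed lines. Every list gene carries 1 symbol, and of the 10099 probesets with 1 symbol 285 rose and 732 fell. Right, the median log2 change (diamond) and the range over genes. Cholesterol synthesis has 7 of 13 genes lower, whereas drug and steroid metabolism has 6 of 21 genes higher.

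Of 19 measured genes of fatty acid oxidation and ketogenesis 3 fell, 1 rose and 15 did not pass, against 732 falls and 285 rises among the 10099 probesets with 1 symbol. PLIN2, which coats lipid droplets, was 7.43 to 8.62 at day 56 (median 7.89), against 9.48 to 10.23 at day 28 (median 9.88), a change of −1.99 (SE 0.19, adjusted p = 0.00021). CPT1A, which loads fatty acids onto carnitine at the outer mitochondrial membrane, was 7.58 to 9.45 at day 56 (median 8.31), against 9.67 to 10.51 at day 28 (median 9.92), a change of −1.63 (SE 0.27, adjusted p = 0.0036). SLC25A20, the carnitine carrier of the inner membrane, changed by −1.53 (SE 0.32, adjusted p = 0.011). PPARGC1A, a coactivator of mitochondrial genes, rose to 8.13 to 8.44 at day 56 (median 8.24), against 5.38 to 7.92 at day 28 (median 6.22), a change of 1.90 (SE 0.34, adjusted p = 0.0053). Among the 15 that did not pass, the oxidation enzymes HADHA, ACADM and ACADVL had changes of −0.40, −0.21 and −0.12. Among 14 genes of fat absorption, MTTP, which loads lipid onto apolipoprotein B, fell by 0.65 (SE 0.13, adjusted p = 0.0095), and APOB and ABCG8 rose by 0.49 and 0.72 (adjusted p = 0.028 and 0.027), with the call lost in 5 and 7 of the 12 fits without 1 array. The calls of MTTP, APOB and ABCG8 were lost in the fit of 9 groups (adjusted p = 0.633, 0.794 and 0.493).

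Several enzymes that modify drugs, steroids and plant compounds were higher at day 56. Of 21 measured genes 6 rose and none fell, with a median change of 0.89, whereas 285 of the 10099 probesets with 1 symbol rose. UGT2B31, a glucuronosyltransferase, was 6.41 to 10.42 at day 56 (median 8.42), against 3.15 to 5.73 at day 28 (median 3.68), a change of 4.51 (SE 0.70, adjusted p = 0.0026). EPHX1, the microsomal epoxide hydrolase, was 7.13 to 9.74 at day 56 (median 8.16), against 3.19 to 6.78 at day 28 (median 5.30), a change of 3.11 (SE 0.60, adjusted p = 0.0078). EPHX2, the soluble epoxide hydrolase and no member of that list, was 6.66 to 9.47 at day 56 (median 8.92), against 3.23 to 6.56 at day 28 (median 3.84), a change of 3.85 (SE 0.67, adjusted p = 0.0051). The 2 days did not overlap for these 3 genes. HSD11B2, which inactivates cortisol, rose by 1.85 (SE 0.35, adjusted p = 0.0075), FMO1 by 1.199 (adjusted p = 0.031), CYP1A1 by 1.94 (adjusted p = 0.043) and CYP3A29 by 2.55 (adjusted p = 0.044). UGT and CYP3A genes have close relatives whose transcripts a probeset may share, so the identity of the family member is uncertain. Of 10 measured glucocorticoid-responsive genes SGK1 and KLF9 rose, by 0.92 and 0.76, and 8 did not pass. The call of KLF9 was lost in 7 of the 12 fits without 1 array, and those of SGK1 and KLF9 in the fit of 9 groups (adjusted p = 0.199 and 0.166).

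Tryptophan, serotonin and thyroid hormone genes were among the largest changes on the array. Of 6 measured tryptophan and kynurenine genes 2 rose and 2 fell, and of 7 thyroid hormone genes 1 rose and 1 fell. Both groups were put together after their values were seen. Among the 10099 probesets with 1 symbol 285 rose and 732 fell. KMO, the hydroxylase of the kynurenine path by which tryptophan is broken down, was 5.11 to 7.99 at day 56 (median 6.59), against 8.54 to 10.30 at day 28 (median 9.81), a change of −3.12 (SE 0.43, adjusted p = 0.0014). KYNU, the kynureninase of the next step, changed by −1.996 at its brighter probeset (SE 0.47, adjusted p = 0.021), and HAAO, further along, by −0.18 (adjusted p = 0.54). SLC6A4, the serotonin transporter, was 3.80 to 6.67 at day 56 (median 5.56), against 2.07 to 2.64 at day 28 (median 2.50), a change of 2.88 (SE 0.44, adjusted p = 0.0024). At day 28 all 6 of its values were dim. DIO1, which converts thyroxine to its active form, was 2.98 to 3.96 at day 56 (median 3.79), against 5.55 to 7.85 at day 28 (median 6.59), a change of −2.99 (SE 0.32, adjusted p = 0.00034). IYD, which recovers iodide from iodinated tyrosine, was 6.47 to 7.92 at day 56 (median 7.44), against 2.86 to 4.33 at day 28 (median 3.37), a change of 3.78 (SE 0.31, adjusted p = 7.5e-05). The mean of IYD was 6.32 at day 5, so day 28 was the lowest of the 3 ages in IR.

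Other large changes had no list of their own. PLBD1, a phospholipase B-like protein of lysosomes, was 4.07 to 6.25 at day 56 (median 5.04), against 6.93 to 9.82 at day 28 (median 8.99), a change of −3.72 (SE 0.49, adjusted p = 0.0010). A second probeset of PLBD1 fell by 3.34, and one with a mean of 8.91 at day 56 and 9.22 at day 28 did not pass (change −0.31, adjusted p = 0.066). PARM1, a mucin-like membrane protein, was 4.45 to 5.99 at day 56 (median 5.13), against 7.10 to 9.60 at day 28 (median 7.47), a change of −2.58 (SE 0.39, adjusted p = 0.0021). The day 5 means of PLBD1 and PARM1 were 11.33 and 9.67, above both later ages. FAXDC2, a member of the fatty acid hydroxylase family, was 11.55 to 12.44 at day 56 (median 11.90), against 7.87 to 9.89 at day 28 (median 9.29), a change of 2.81 (SE 0.31, adjusted p = 0.0004). GPRC5A, an orphan receptor, was 5.84 to 8.46 at day 56 (median 7.04), against 2.85 to 5.27 at day 28 (median 3.40), a change of 3.59 (SE 0.48, adjusted p = 0.0011). LOC396867 changed by 3.75 and LOC100524999 by −3.17 (adjusted p = 0.0017 and 0.00049). The largest fall of all belonged to a probeset that the platform table names RACK1, at 2.86 to 5.61 at day 56 (median 3.17), against 9.14 to 12.12 at day 28 (median 11.25), a change of −7.03 (SE 0.63, adjusted p = 0.00015). A brighter probeset of RACK1, a scaffold protein of the ribosome that is present in most cells, averaged 12.60 at day 56 and 12.72 at day 28 (change −0.12, adjusted p = 0.46). The 2 probesets named RACK1 disagree, so the transcript behind the first is uncertain.

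CCL2 and CCL8, which attract monocytes, were lower at day 56. CCL2, the main attractant of monocytes, was 4.94 to 7.43 at day 56 (median 7.19), against 8.74 to 9.68 at day 28 (median 9.09), a change of −2.35 (SE 0.37, adjusted p = 0.0030). CCL8, a related monocyte attractant, was 2.35 to 3.81 at day 56 (median 3.09), against 4.35 to 7.57 at day 28 (median 4.73), a change of −2.21 (SE 0.52, adjusted p = 0.022), and its call was lost without day 56 replicate 1 (adjusted p = 0.0508) or day 28 replicate 4 (adjusted p = 0.0507). AMCF-II, a porcine CXC chemokine that attracts neutrophils, was 4.12 to 5.83 at day 56 (median 5.26), against 6.38 to 8.32 at day 28 (median 7.77), a change of −2.31 (SE 0.38, adjusted p = 0.0038). A further probeset of AMCF-II fell by 1.45, and its brightest probeset had a change of 0.33 that did not pass (adjusted p = 0.22), so the probesets of this gene disagree. CCL4 changed by −1.28 and CCL14 by 1.33 (adjusted p = 0.031 and 0.041), and leaving out 1 array ended the call in 8 and 9 of 12 fits. CCL2 and CCL4 did not pass in the fit of 9 groups (adjusted p = 0.0599 and 0.356). Over the list of 22 measured chemokines and receptors, at the brightest probeset of each, 3 fell, 1 rose and 18 did not pass. Among the 10099 probesets with 1 symbol 732 fell and 285 rose.

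Single genes of macrophages and of innate sensing were called lower at day 56, and most of those measured did not pass. CD163, the haemoglobin scavenger receptor of tissue macrophages, was 5.12 to 5.70 at day 56 (median 5.52), against 5.97 to 8.40 at day 28 (median 7.23), a change of −1.79 (SE 0.39, adjusted p = 0.014). It was the only 1 of 11 measured macrophage markers to pass, although all 11 had a change below 0 (median −0.67), against 12383 of all 24057 probesets. The list mean was 5.57 to 6.42 at day 56, against 6.34 to 7.55 at day 28. TLR4, the receptor for lipopolysaccharide, TLR2, the receptor for bacterial lipopeptides, and IRAK1, a kinase downstream of both, changed by −1.08, −1.22 and −0.55 (adjusted p = 0.017, 0.038 and 0.011), and 10 of 13 sensing genes did not pass. The levels of TLR4 and TLR2 at day 56, with medians of 3.69 and 3.16, were dim, 4 other probesets of TLR4 had changes between −0.17 and 0.03, and the call of TLR2 was lost in 9 of the 12 fits without 1 array. Among 15 complement genes SERPING1, C1R and C1S fell by 0.80, 0.71 and 0.51 (adjusted p = 0.011, 0.017 and 0.026). Beside these counts, 732 of the 10099 probesets with 1 symbol fell. The fit of 9 groups ended the calls of TLR4, TLR2, SERPING1 and C1R (adjusted p = 0.150, 0.168, 0.0741 and 0.137). Markers of T cells, blood endothelium, smooth muscle, goblet cells and enteroendocrine cells had 0 called by limma of 10, 10, 9, 3 and 9 genes, and 1, 2, 0, 0 and 0 of them had an unadjusted p under 0.05.

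Antigen presentation was lower at single genes, and interferon-induced genes differed between piglets more than between days. SLA-3, a porcine class I heavy chain, changed by −0.58 (SE 0.11, adjusted p = 0.0085), the proteasome subunit PSMB10 by −0.90 (adjusted p = 0.016) and the proteasome activator PSME2 by −0.69 (adjusted p = 0.032), and 12 of 15 class I genes did not pass. For comparison, 732 of the 10099 probesets with 1 symbol fell. SLA class I genes are close relatives, so the member measured is uncertain. SLA-3 and PSMB10 did not pass in the fit of 9 groups (adjusted p = 0.307 and 0.184). IFI30, a lysosomal reductase that prepares antigens for class II, was 9.63 to 10.51 at day 56 (median 10.16), against 11.03 to 11.83 at day 28 (median 11.27), a change of −1.22 (SE 0.19, adjusted p = 0.0027). None of the 23 measured type I interferon-induced genes passed by limma, 4 had an unadjusted p under 0.05, and all 23 had a change below 0, with a median of −0.78. Over all 24057 probesets 12383 had a change below 0. GBP1, ISG20 and PARP9 had the smallest p, with changes of −0.71, −2.08 and −0.83 (adjusted p = 0.081, 0.082 and 0.10).

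The interferon list split the piglets of each day. At day 56 the list mean was 11.03 and 11.11 in replicates 5 and 6, against 7.06 to 8.03 in the other 4. At day 28 it was 9.99 to 10.90 in replicates 3 to 6, against 7.92 and 7.34 in replicates 1 and 2. Of the 5 label numbers present at both days, 4 had list means that differed little between the days and 1 did not. Replicates 1 and 2 had 7.75 and 7.42 at day 56, against 7.92 and 7.34 at day 28, and replicates 5 and 6 had 11.03 and 11.11 at day 56, against 10.73 and 10.67 at day 28, whereas replicate 3 had 7.06 at day 56, against 9.99 at day 28. The labels do not say what a shared number stands for.

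PIGR, the receptor that carries IgA across the epithelium, rose. It was 9.04 to 10.09 at day 56 (median 9.76), against 7.25 to 8.97 at day 28 (median 8.24), a change of 1.47 (SE 0.28, adjusted p = 0.0072), and its mean was 2.43 at day 5. XBP1, a transcription factor of secretory cells including plasma cells, fell by 0.52 (SE 0.09, adjusted p = 0.0047), and the joining chain JCHAIN had a change of 0.33 that did not pass (adjusted p = 0.26). SLPI, an antiproteinase of mucosal secretions, was 7.61 to 11.09 at day 56 (median 9.81), against 10.79 to 12.15 at day 28 (median 11.55), a change of −2.01 (SE 0.52, adjusted p = 0.033; the call was lost in 8 of the 12 fits without 1 array). Of 15 measured mucosal antimicrobial genes 1 fell, 2 rose and 12 did not pass, and 10 of the 15 were dim. Among the 10099 probesets with 1 symbol 732 fell and 285 rose. PIGR and SLPI did not pass in the fit of 9 groups (adjusted p = 0.215 and 0.0843).

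A few genes of DNA replication fell. All 26 measured cell cycle genes had a change below 0 (median −0.65), as had 12383 of all 24057 probesets. Of the 26, 3 fell and 23 did not pass, against 732 falls among the 10099 probesets with 1 symbol. MCM2, a subunit of the replicative helicase, was 4.76 to 6.54 at day 56 (median 5.84), against 6.81 to 7.26 at day 28 (median 7.02), a change of −1.17 (SE 0.25, adjusted p = 0.012). PCNA, the sliding clamp, changed by −0.92 (SE 0.21, adjusted p = 0.017) and the helicase subunit MCM5 by −1.203 (SE 0.32, adjusted p = 0.037), and the call of MCM5 was lost in 9 of the 12 fits without 1 array. EGR1, an immediate early transcription factor, was 6.41 to 8.24 at day 56 (median 7.28), against 8.35 to 9.81 at day 28 (median 8.79), a change of −1.68 (SE 0.33, adjusted p = 0.0082). The fit of 9 groups ended the calls of MCM2, PCNA, MCM5 and EGR1 (adjusted p = 0.242, 0.307, 0.121 and 0.174). The clock genes ARNTL and CRY2 changed by −1.27 and 0.97 (adjusted p = 0.025 and 0.033), with the call lost in 3 and 8 of the 12 fits without 1 array. Of 50 measured cytosolic ribosomal proteins 0 passed by limma and 2 had an unadjusted p under 0.05, with a median change of −0.02.

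**Figure D3:**
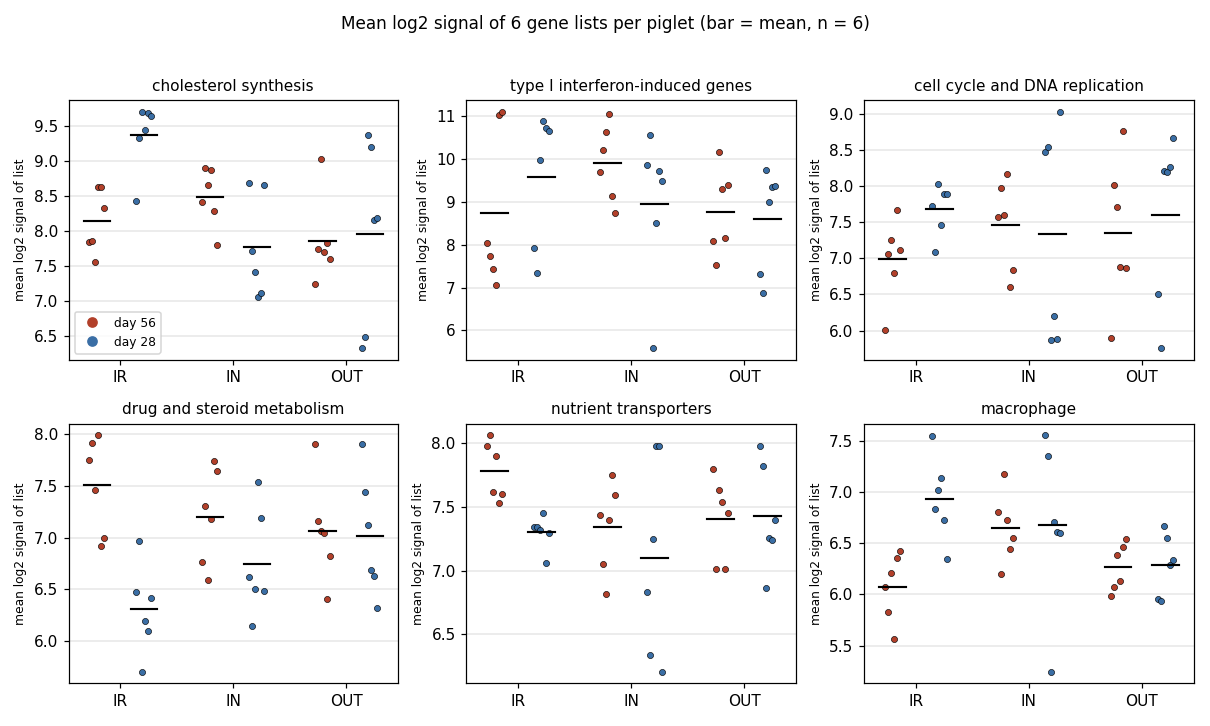
Mean log2 signal over the genes of 6 lists in each piglet at day 56 (red, left of each pair) and day 28 (blue, right), in isolator (IR), indoor (IN) and outdoor (OUT) groups, with the group mean as a bar (n = 6). In IR the cholesterol list lies at 7.55 to 8.63 at day 56, against 8.43 to 9.70 at day 28, and the interferon list splits the piglets of each day.

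To see which changes were also present in piglets reared by sows, the same fit was run in IN and in OUT. It called 317 probesets in IN (1.32%) and 782 in OUT (3.25%). The spread of day 28 piglets was wider in the sow-reared groups, since the median SD over probesets was 0.25 at day 56 and 0.25 at day 28 in IR, against 0.26 and 0.38 in IN and 0.32 and 0.29 in OUT. Of the 969 rises of IR, 84 (8.67%) were also called as rises in IN, which is 45.7% of the IN rises, and 193 (19.9%) in OUT, which is 46.7% of the OUT rises. The background share of rises was 0.765% in IN and 1.72% in OUT. Of the 1116 falls of IR, 71 (6.36%) were also called in IN and 186 (16.7%) in OUT, against background shares of falls of 0.553% and 1.53%. No probeset called in IR was called in the opposite direction in either sow-reared group. The direction was the same for 88.4% of rises and 83.0% of falls in IN, and for 94.3% and 95.4% in OUT. The same shares over all probesets were not counted, so the background of this agreement is not known. The GAPDH gap between the days was seen in all 3 housings, and its part in this agreement was not tested. In all, 49 rises and 38 falls were called in IR, IN and OUT.

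**Figure D4:**
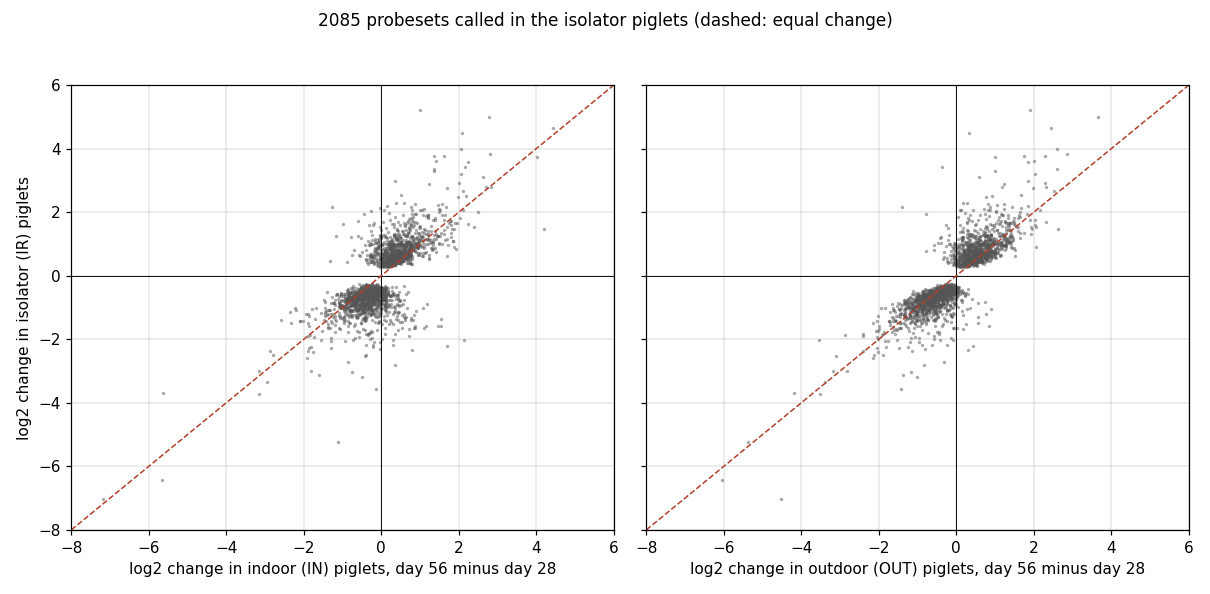
Log2 change between day 56 and day 28 of the 2085 probesets called in isolator piglets (vertical axis) against the change of the same probeset in indoor (left) and outdoor (right) sow-reared piglets, with equal change as a dashed line. Of the rises 88.4% share their direction with IN and 94.3% with OUT, and of the falls 83.0% and 95.4%. The same shares over all probesets were not counted.

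Genes for folate and galactose had changes of similar size in the 3 housings. SLC46A1 changed by −3.001 in IR, −3.15 in IN and −2.83 in OUT, and all 3 groups passed the test. GALT changed by −1.74, −1.53 and −2.02, GALK1 by −2.05, −1.30 and −1.83, and PARM1 by −2.58, −1.90 and −2.16, again with every group past the test. FABP6 changed by 4.67 in IR, 4.44 in IN and 2.46 in OUT, and did not pass in IN (adjusted p = 0.19) or OUT (adjusted p = 0.079). The RACK1 probeset changed by −7.03, −7.18 and −4.53, with an adjusted p of 0.12 in OUT.

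Sterol and immune genes had different values by housing. The median change of the cholesterol list was −1.21 in IR, against 0.85 in IN and 0.18 in OUT. Whether these medians differ was not tested. In IN and in OUT 0 of the 13 genes were called, where the share over all probesets was only 1.32% and 3.25%. INSIG1, at the probeset of larger change, had means at day 56 of 5.39 in IR, 5.38 in IN and 4.15 in OUT, whereas at day 28 they were 8.96 in IR, 5.52 in IN and 5.59 in OUT. CCL2 changed by −2.35 in IR, against 0.79 in IN and 0.31 in OUT. PLIN2 changed by −1.99 in IR, 0.01 in IN and −2.03 in OUT, and the OUT fall also passed (adjusted p = 0.041). PIGR rose in IR by 1.47 and in OUT by 2.62 (adjusted p = 0.045), and had a change of 4.21 in IN (adjusted p = 0.082). The interferon list had a median change of −0.78 in IR, 0.80 in IN and 0.24 in OUT.

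**Figure D5:**
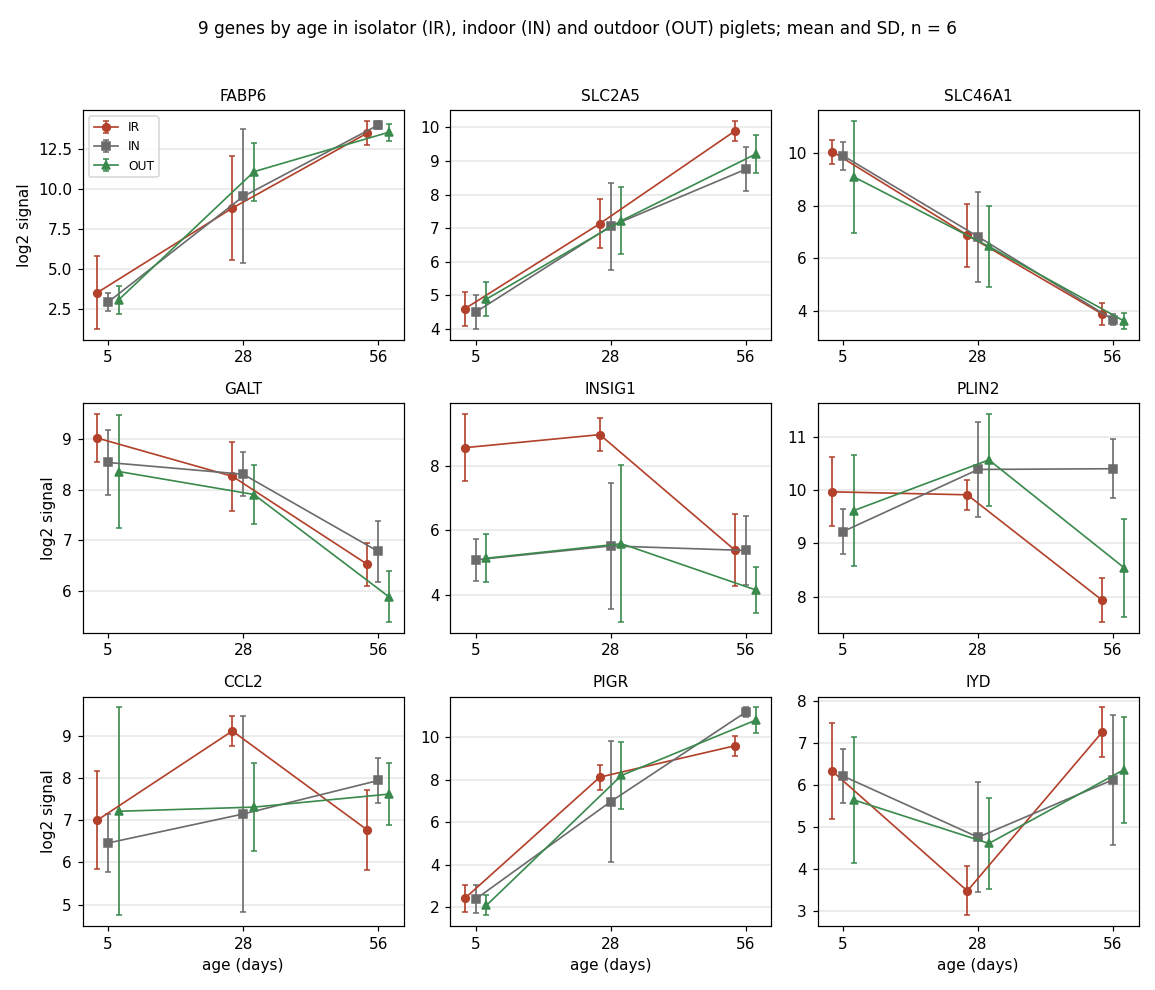
Mean and SD (n = 6) of log2 signal at days 5, 28 and 56 in isolator (IR), indoor (IN) and outdoor (OUT) piglets for 9 genes. SLC46A1 changes by −3.001, −3.15 and −2.83 between days 28 and 56 in IR, IN and OUT, whereas INSIG1 stands at 8.96 in IR at day 28, above 5.52 in IN and 5.59 in OUT, and at 5.39 in IR at day 56, beside 5.38 in IN.

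These differences between housings were then tested directly, in a fit of the 36 arrays of the 3 groups. No probeset had an adjusted p under 0.05 for the change of IR minus the mean change of IN and OUT, minus that of IN, or minus that of OUT. INSIG1, CCL2, PLIN2 and PIGR, set side by side above, therefore did not pass either. At an unadjusted p under 0.05 limma counted 1236 (5.14%), 1970 (8.19%) and 994 (4.13%) probesets, and the study's criterion 104 (0.432%), 255 (1.06%) and 63 (0.262%). With a block by label numbers taken in twos within housing, 1 probeset, of AMCF-II, was called against both groups (difference −2.03, adjusted p = 0.0157) and against IN (difference −2.37, adjusted p = 0.0159). Without IN day 28 replicate 2, CCL8 was called against IN (difference −4.58, adjusted p = 0.0259). A miss of the threshold does not show that the groups responded alike. Among named genes the smallest p against both sow-reared groups belonged to AKR1CL1, an aldo-keto reductase, which rose in IR by 2.16 and changed by −1.28 in IN and −1.40 in OUT, a difference of 3.50 (SE 0.73, adjusted p = 0.75). CCL8 differed by −3.29 (SE 0.78, adjusted p = 0.75) and PIM3, a serine-threonine kinase, by 1.16 (SE 0.27, adjusted p = 0.75). The difference for ARRDC4, an arrestin-like protein, was −1.10 (SE 0.27, adjusted p = 0.80). Against IN alone, CCL8 differed by −3.91, TRAM2 by −1.23, CPT1A by −2.18 and LOC100512700 by 1.73 (adjusted p = 0.39 for each). Against OUT alone, AKR1CL1 differed by 3.55, IFI30 by −1.16, HP by −1.83 and ABCB6 by 1.43 (adjusted p = 0.99 for each).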

How the data were processed

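The authors hybridised ileal RNA of 54 piglets, 1 array each, to the GeneChip Porcine Genome array. Per the submitters' processing notes, GCOS 1.2 and GCRMA were used, and the deposited values are log2 signals, from −0.16 to 14.66 over the 12 IR arrays, used here without further scaling. Arrays give no counts, so their number limits the precision. Of 24123 probesets 66 control probesets were left out. The platform table gives 1 symbol to 10099 of the 24057 tested, several to 198 and none to 13760. Groups came from the sample titles.

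Changes were fitted with limma 3.58.1 in R 4.3.3, with Benjamini-Hochberg adjustment. The study's methods name 3 runs, which could not serve as a block since no label ties a piglet to its run. The same fit was made in IN and OUT, and differences between housings came from 1 fit of 36 arrays. Exact permutation p-values are two-sided, over 924 splits. Nothing in the labels says which piglets share a litter, so p-values measure the spread between these arrays. Each fit was tested on simulated data.

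The comparison, its genes and its 49 gene lists (29 of pathways, 20 of cell types) were chosen with earlier results of these data known. A gene stands in a list at its brightest probeset. Lists are described by counts and medians, with no test of their own. The genes of a list were measured in the same piglets, so their directions are not independent. Named genes are the 12 largest rises and 12 largest falls among called probesets with 1 symbol, at most 3 genes per list (those of lowest p), and 4 genes for each difference between housings that meet the study's criterion. Genes outside this rule, among them SQLE, MSMO1, HSD17B7, SC5D, GALK1, GALT, GALK2, KYNU, HAAO, CCL14, SLC25A20, HADHA, ACADM, ACADVL, SLC1A1, SLC6A14, FMO1, CYP1A1, CYP3A29 and JCHAIN, and 6 more lists were chosen after their values were seen.

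Alternatives were a block by label number, all 9 groups in the fit, a filter keeping probesets with a log2 value of 4 in at least 6 arrays, quantile normalization once more, centring on the array median, weighting of arrays, a trended and robust variance, and leaving out each array. Figures were drawn with matplotlib 3.10.9.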

Additional observations from a re-analysis of the deposited data

Results flagged for a closer look

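Of 170 groups of 6 values (85 named genes at both days), 14 held a piglet far from the other 5 by Dixon's test, where chance gives about 1 in 20. Of these, 3 belonged to IR replicate 2 at day 56. In it CD79B, a component of the B cell receptor, was 6.18, against 3.03 in the next piglet, LTB, a lymphotoxin of lymphoid tissue, was 8.73, against 4.03, and MTTP was 11.04, against 11.58. CCL2 was low in replicate 3 of that day (4.94, against 6.53), and SGK1 was high in the unnumbered array (12.55, against 12.06).

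At day 28 IR replicate 2 stood apart in 5 genes. It was high for GPRC5A (5.27, against 3.70) and ACO1 (12.08, against 11.86), and low for KMO (8.54, against 9.80), PARP9 (9.29, against 10.25) and TLR2 (3.31, against 4.23). Replicate 1 was low for NSDHL (6.81, against 7.93) and FDPS (10.47, against 11.16). PARM1 was high in replicate 4 (9.60, against 7.74), and SLC15A1 was low in replicate 5 (8.50, against 9.87). Without day 56 replicate 2 the count of called probesets was 1596, and without day 28 replicate 2 it was 2203. No probeset moved in opposite directions without overlap in IR and a sow-reared group.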

How the results depend on the processing

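Against 2085 calls, a replicate block by shared label number gave 823, of which 723 were among the 2085. That fit used only arrays whose number occurs at both days, and the same arrays without the block gave 1201. With all 9 groups in the fit the count was 1175, and with at least a 2-fold change as well it was 621. A block by label numbers in twos gave 1985. That fit left out the unnumbered day 56 array, and the same arrays without a block gave 1596. The other settings gave 1764 to 2593, and fits without 1 array gave 1449 to 2511. Deviations of same-numbered arrays from their group means correlated between −0.14 and 0.37, above 0.1 in 4 of 5 pairs, and 2 of 5 arrays correlated best with their own number, so the numbers were not taken to pair the piglets. That check looked at single numbers and cannot say whether numbers in twos belong together. The cause of the lower counts was not tested beyond the fewer arrays. Of 85 named genes 77 were called, 60 of them in each fit without 1 array and 31 under every setting, and none changed direction. Most were chosen by large change or low p in these same arrays, so their share does not stand for all calls. Of the 2085 calls, fits without 1 array kept between 1390 and 1921. The block by shared number lost 34 of these calls, the same arrays without it 21 and the fit of 9 groups 27. DPEP1, FABP6, PCK1, SQLE and ARNTL were lost with the shared-number arrays but not with their block, and of these 2 fits only that with the block lost UGT2B31, EPHX1, SLC39A14, ACO1, MTTP, APOB, FASN, SLC25A20, HSD11B2, SLA-3, IFI30, TLR4, SERPING1, CD163, PIGR, XBP1, PCNA and PIM3. The block in twos lost 7 (FABP6, DGAT2, CCL4, CCL14, TLR2, KLF9 and AKR1CL1). Leaving out day 56 replicate 1 or day 28 replicate 3 lost 14 each. In the tests of housing differences, a replicate block by numbers in twos within housing called 1 probeset against both groups (AMCF-II, adjusted p = 0.0157) and 1 against IN (AMCF-II, adjusted p = 0.0159). Leaving out IN day 28 replicate 2 called 1 against IN (CCL8, adjusted p = 0.0259), so fits without 1 array gave 0 to 1 calls against IN and 0 against OUT or both. List medians moved by less than the spread between piglets in 147 of 147 repeats. Of the probesets tested, 11761 had a mean under 4, where the array measures small differences poorly.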

Other observations

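Further groups of genes, put together after the values were seen, were lower at day 56. Of 46 measured genes that make ribosomes in the nucleolus, 20 fell and none rose (median change −0.62). Of all probesets 4.64% fell, and of the 10099 with 1 symbol 732 fell. GPATCH4 changed by −1.12 (adjusted p = 0.00057), POLR1C, a subunit of RNA polymerase I and III, by −0.98 (adjusted p = 0.0010), and LYAR, a nucleolar protein of growing cells, by −1.78 (adjusted p = 0.0051). Of 58 measured mitochondrial ribosome proteins 19 fell and none rose (median −0.38), led by MRPS34, which was 6.46 to 7.83 at day 56, against 8.43 to 9.29 at day 28 (change −1.67, adjusted p = 0.0012).

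Of 45 measured genes of folding and export in the endoplasmic reticulum 21 fell and none rose. All 45 had a change below 0 (median −0.40), against 12383 of all 24057 probesets. OSTC, a subunit of the oligosaccharyltransferase, was 9.05 to 9.79 at day 56, against 10.14 to 10.79 at day 28 (change −1.08, adjusted p = 0.0023), SEC61A1, the channel for nascent proteins, changed by −0.77 (adjusted p = 0.0032), and MANF by −0.94 (adjusted p = 0.011). In IN the medians of the 3 groups were −0.24, −0.26 and 0.06, and in OUT −0.33, −0.40 and −0.36, with at most 2 genes called in any group. Over all probesets only 0.553% were called as falls in IN and 1.53% in OUT. Whether these medians differ from those of IR was not tested.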
